A study of Sus scrofa with 2 samples.

Results

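Described here are 7 long stretches of the pig genome, each over 45 kb, whose RNA was abundant in a culture of embryonic germ cells (pEGC) and scarce in a culture of fetal fibroblasts (pFF). They were chosen from these same 2 libraries. Places covered by reads, called islands, were first compared between the libraries, and islands higher in pEGC that lay within 20 kb of each other were joined. The same joining gives 91 stretches over 45 kb higher in pEGC and 36 higher in pFF, and the 7 loci rank 1, 2, 3, 4, 5, 7 and 16 among the 91 by their level in pEGC. Since the difference between the libraries chose the loci, their ratios are a description and support nothing. The shortest of the 7, on chromosome 8, spans 49.7 kb. Of the stretches as abundant in pEGC as the 7, the longest under the limit lies on chromosome 5 from 49110249 to 49153886 and spans 43.6 kb. It reached 1137 RPM (reads per 1000000 reads) in pEGC against 209 RPM in pFF, a ratio of 5.43.

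Poly(A) RNA from both cultures was sequenced, with 1 library each, and the deposited files list the position of every aligned read. Both cultures came from embryos of a Danish Landrace and Yorkshire cross taken between days 17 and 24 of gestation, although the title of the series names mini pigs. The pEGC cells were grown from hindgut or mesonephros tissue over mitomycin C-inactivated STO feeders, which are mouse fibroblasts, in medium holding 10 ng/ml LIF, 10 ng/ml SCF and 3 ng/ml bFGF. Their colonies were separated from somatic and feeder cells by collagenase and mesh filtering at the first passage. How the pFF cells were cultured, and how many embryos stand behind each library, is not stated in the labels, and any feeder reads that matched pig sequence cannot be told from pig reads. Because the files carry positions without gene names and their genome build is not given in the sources used here, neither the labelled cell types nor the genes in the 7 loci could be checked, and the loci are named by chromosome.

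Embryonic germ cells are cultured descendants of primordial germ cells, the precursors of sperm and eggs. Fetal fibroblasts are connective tissue cells of the same embryonic period. In a mammalian gene, short exons are usually separated by long introns, and the last exon, which holds most of the untranslated end of the mRNA, is often the longest. Selection for poly(A) tails enriches spliced mRNA, so reads normally gather in exons, while reads spread between exons can come from RNA that still holds introns or from other transcripts. In bulk RNA, fewer cells of a type and less RNA per cell cannot be told apart.

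Each library holds 14324517 reads. One block near the lower end of chromosome 6 takes a large and unequal share, so levels are RPM over the 12682180 pEGC reads and 9942279 pFF reads outside it. In ratios a count of 0 is set to 3 reads, a floor that equals 0.237 RPM for pEGC and 0.302 RPM for pFF. Ranges in parentheses after a ratio are exact 95% intervals (Clopper-Pearson). They cover counting error only. The reads carry no molecular identifiers, so several may come from 1 molecule, and there are no replicates, so no difference can be set against the spread between cultures.

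The 7 loci cover 660.1 kb and took 188277 pEGC reads and 12384 pFF reads, or 1.48% and 0.125% of the reads outside the chromosome 6 block. Their summed level was 14846 RPM in pEGC and 1246 RPM in pFF, a ratio of 11.9 (11.7 to 12.1). An island is a stretch in which each read start lies within 200 bases of the next and at least 20 pooled reads fall. Of the 158 islands in the loci, 107 had at least 50 reads in 1 library. Of these, 104 were at least 4-fold higher in pEGC with an interval beyond 2-fold, and 0 were so in pFF. Over all 32206 islands of that depth in the genome, 15.5% met the rule for pEGC and 8.82% for pFF. The rule that chose the loci used the same contrast, so nothing is read from this gap. The median log2 ratio of the 107 islands was 4.65, beside 0.32 over all 32206. In 40 of the 158 islands pFF had 0 reads.

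The ratios of the loci ran from 4.75 to 57.1. On chromosome 16, the 61.5 kb of chr16:15499459-15560963 reached 3700.2 RPM in pEGC against 333 RPM in pFF, a ratio of 11.1 (10.7 to 11.5). On chromosome 9, the 103.7 kb of chr9:65833407-65937077 had 2959 and 229 RPM, a ratio of 12.9 (12.4 to 13.5). On chromosome 1, the 121.6 kb of chr1:132366977-132488591 had 2735 and 56.1 RPM, a ratio of 48.7 (44.8 to 53.1). These are the loci with the most pEGC RNA, and the chromosome 1 locus stands apart by its low pFF level. On chromosome 8, the 49.7 kb of chr8:99419361-99469039 had 1407 and 34 RPM, a ratio of 41.4 (37.2 to 46.2). On chromosome 2, the 87.1 kb of chr2:106579560-106666690 had 1760.5 and 239 RPM, a ratio of 7.37 (7.07 to 7.69). On chromosome 12, the 71.9 kb of chr12:44397801-44469654 had 1629 and 343 RPM, a ratio of 4.75 (4.58 to 4.92). The chromosome 12 locus thus had the lowest ratio and the highest pFF level. On chromosome 7, the 164.7 kb of chr7:52893854-53058544 had 655 and 11.5 RPM, a ratio of 57.1 (47.5 to 69.3). It is the longest locus and had the least RNA in both libraries.

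Per kilobase, the pEGC level was 60.2 RPM on chromosome 16, between 20.2 and 28.5 RPM in the loci of chromosomes 9, 1, 8, 2 and 12, and 3.97 RPM on chromosome 7. In pFF the density ran from 0.0696 RPM per kb on chromosome 7 to 5.41 RPM per kb on chromosome 16. In the order of the ratios, from chromosome 12 through 2, 16, 9, 8 and 1 to 7, the intervals of chromosomes 8 and 1 overlapped, as did those of chromosomes 1 and 7. The intervals of the lower 4 did not overlap each other, also when a pFF pile-up on chromosome 9 is left out.

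**Figure D1:**
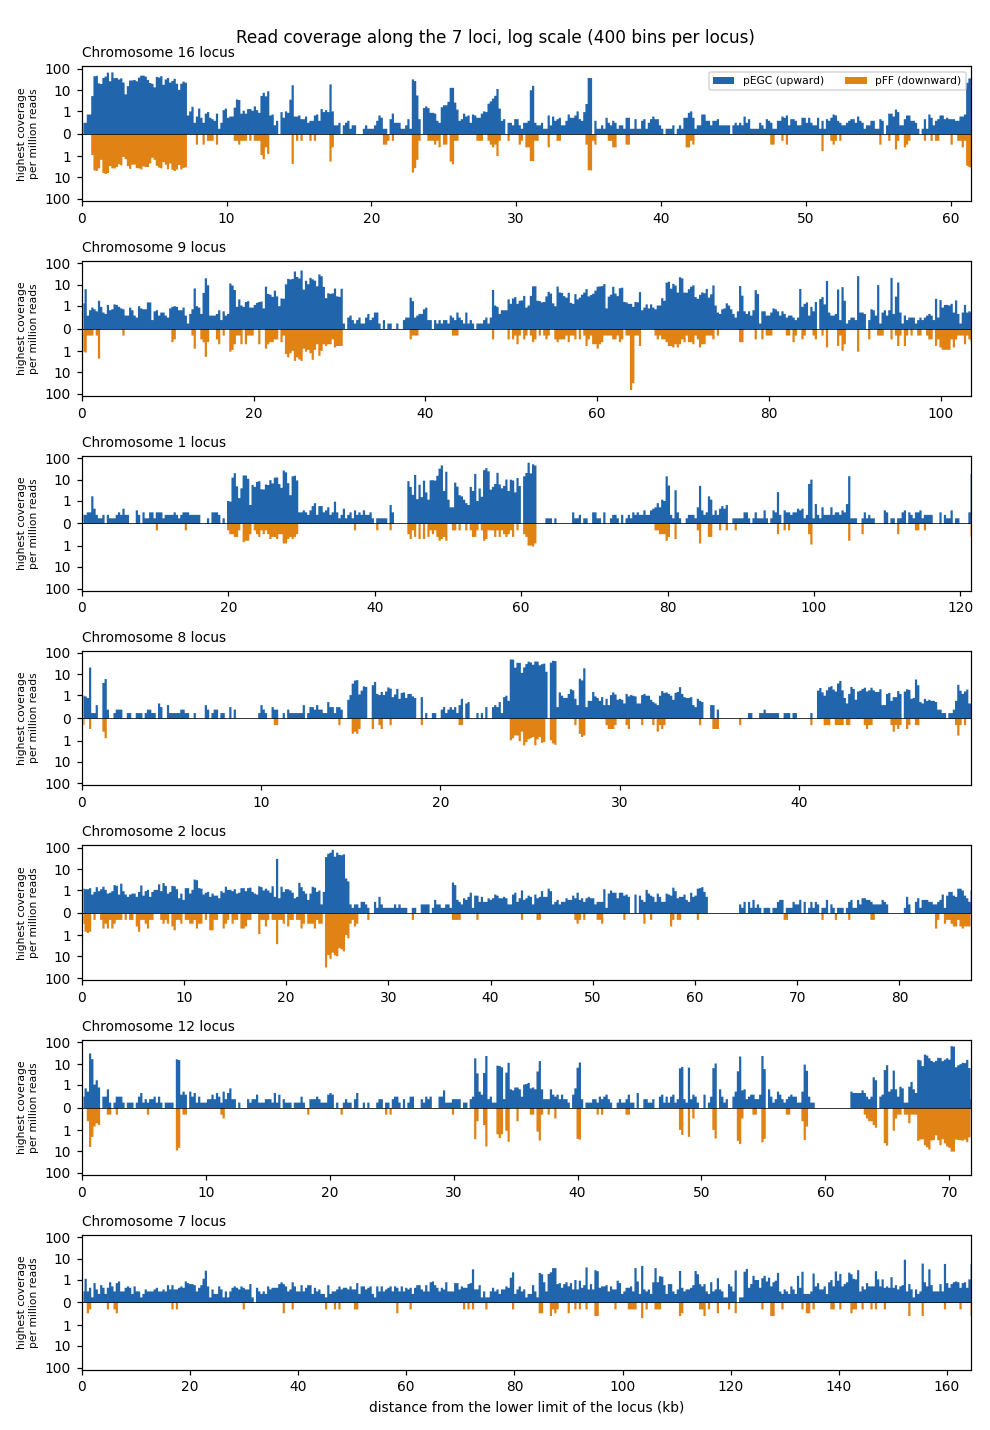
Read coverage along each of the 7 loci, as the highest coverage, scaled as RPM, in each of 400 equal bins on a log scale, with pEGC drawn upward and pFF downward against the distance from the lower limit in kb. Most loci show 1 dense stretch and narrow peaks, the chromosome 7 locus shows low coverage throughout, and a single pFF spike stands at 63.9 kb of the chromosome 9 locus.

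To describe the shape of each locus, bases covered by at least 10 pooled reads were joined over gaps of up to 20 bases into covered runs. Runs of 50 to 500 bases are called exon-like peaks and wider ones wide blocks. No annotation of these positions was used, so neither is shown to be an exon. The loci held 319 exon-like peaks and 21 wide blocks, and 82 of the peaks had 0 pFF reads. Along each locus, successive islands were also grouped into parts wherever the ratio changed at least 2-fold between groups of at least 3 islands with intervals that did not overlap. This gave 13 parts: 4 on chromosome 9, 3 on chromosome 2, 2 on chromosome 1, and 1 in each of the other loci.

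The chromosome 16 locus was 1 part. Its reads were packed at the lower end, where the first island, from 15499459 to 15512912, had 36889 pEGC reads and 2516 pFF reads, a ratio of 11.5 (11.0 to 11.97). That island holds 2 wide blocks, from 15500197 to 15502345 and from 15502399 to 15506582, at 501.8 and 409 RPM per kb in pEGC and ratios of 12.02 and 10.9. The locus also had 22 exon-like peaks. The densest 3, from 15534356 to 15534653, from 15522273 to 15522533 and from 15560515 to 15560866, had 538, 472 and 388 RPM per kb in pEGC and ratios of 8.66, 8.004 and 8.54. Among islands with at least 50 pEGC reads, the ratio was lowest from 15518905 to 15522791 at 8.33 (7.07 to 9.86) and highest from 15550794 to 15554792 at 16.8 (8.31 to 39.4). All 10 islands of sufficient depth met the 4-fold rule. In windows of 10 kb the ratio ran from 8.52 (7.46 to 9.76) to 17.1 (10.0 to 31.6), so it varied beyond counting error along the locus without a step that met the rule for parts.

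The chromosome 9 locus was the most divided, with 102 exon-like peaks, 9 wide blocks and 4 parts. From 65833407 to 65873941 the ratio was 17.4 (16.3 to 18.7). From 65875555 to 65901777 it was 6.35 (5.96 to 6.76), and from 65902039 to 65927999 it was 37.7 (32.4 to 44.0). From 65928179 to the upper limit it was 5.67 (4.68 to 6.93). Since a part needed at least 3 islands, this last part takes in the island from 65928179 to 65930374, at 18.3 (11.0 to 33.1). The ratio thus moved down, up and down again along the locus, and the low value of the second of these parts came from 1 place. Between 65897281 and 65897487, 207 bases held 959 pFF reads at 38 distinct combinations of position and strand, which is 42.2% of the pFF reads of the locus, and 36 pEGC reads at 26 combinations. The pile-up had 96.5 RPM in pFF against 2.84 in pEGC, a pEGC to pFF ratio of 0.0294 (0.0205 to 0.0410). All 650 pFF reads of its lower run, from 65897281 to 65897362, lay on strand F, and 573 of them fell on 3 positions. In the upper run, from 65897439 to 65897487, 7 of 309 pFF reads lay on strand F. Reads on facing strands at a few fixed positions set this pile-up apart from the rest of the locus, and its source was not tested.

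Without the pile-up the chromosome 9 locus had a ratio of 22.3 (21.1 to 23.6) in place of 12.9. Its island from 65880793 to 65901777 went from 6.33 to 43.6 (37.3 to 51.3). The locus then had 3 parts, with 17.3 (16.2 to 18.6) up to 65863887, 40.3 (36.2 to 44.9) from 65865476 to 65927999, and 5.67 beyond. The lower part holds the island with most pEGC reads, from 65845818 to 65863887, with 17724 pEGC and 795 pFF reads and a ratio of 17.5 (16.3 to 18.8). In it stands the widest block of the locus, 3586 bases from 65857877 to 65861462, at 229.9 and 12.7 RPM per kb and a ratio of 18.1. The 4 wide blocks between 65892552 and 65906500 had ratios of 28.0 to 77.4. At the upper end, the island from 65930589 to 65935576 had 445 pEGC and 92 pFF reads and a ratio of 3.79 (3.02 to 4.80), the only island of sufficient depth in the locus under 4-fold. The largest ratio, 57.5 (27.7 to 144), was that of the island from 65909550 to 65912252 with 513 and 7 reads.

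The chromosome 1 locus had 2 parts and 7 wide blocks. Its lower part, from 132366977 to 132443967, had 31894 pEGC and 461 pFF reads, a ratio of 54.2 (49.5 to 59.6). In the upper part, from 132444549 to 132488591, the reads were 2443 and 89 and the ratio 21.5 (17.4 to 26.9). The upper part takes in the island at the upper limit, from 132488403 to 132488591, with 315 and 4 reads and a ratio of 61.7 (23.9 to 228). Most RNA of the locus lay in the lower part, in groups of peaks and blocks 20 to 30 kb and 40 to 70 kb from the lower limit. The widest block, 1458 bases from 132427467 to 132428924, had 453.7 RPM per kb in pEGC and 7.73 in pFF, a ratio of 58.7 (48.7 to 71.4). The island with most pEGC reads, from 132386772 to 132399896, had 10603 and 182 reads and a ratio of 45.7 (39.4 to 53.2). Among islands with at least 50 pEGC reads and with pFF reads present, the ratio was highest from 132417836 to 132426785, at 67.6 (54.8 to 84.3). It was lowest from 132451139 to 132455085, at 11.8 (7.61 to 19.4). All 13 islands of sufficient depth met the 4-fold rule.

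The chromosome 8 locus was 1 part, built around a single wide block of 1977 bases from 99443264 to 99445240. The block had 10745 pEGC and 188 pFF reads, or 428.6 and 9.56 RPM per kb, a ratio of 44.8 (38.8 to 52.0). It held 60.2% of the locus in pEGC and 55.6% in pFF, by reads. The ratios of the islands ran from 11.6 (5.68 to 27.4), from 99420588 to 99420769, to 101 (39.03 to 370), from 99419361 to 99420154. These extremes rest on 8 and 4 pFF reads and lie within 2 kb of each other at the lower limit. All 10 islands of sufficient depth met the 4-fold rule.

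The chromosome 2 locus was dominated by 1 wide block, 1781 bases from 106603455 to 106605235, the densest stretch in the 7 loci at 725 RPM per kb in pEGC. In pFF the block had 113 RPM per kb. It took 73.4% of the locus reads in pEGC and 84.3% in pFF, and its ratio was 6.42 (6.13 to 6.73). Without the block the locus had a ratio of 12.5 (11.3 to 13.9) in place of 7.37. The locus had 3 parts. From 106579560 to 106621200 the ratio was 7.02 (6.73 to 7.33), from 106621493 to 106640760 it was 38.5 (25.7 to 60.3), and from 106654526 to the upper limit it was 6.14 (4.46 to 8.65). The middle part had 1178 pEGC reads and 24 pFF reads and no wide block. A part needed at least 3 islands, so these limits need not fall where the ratio changed. The lower part takes in the islands from 106615654 to 106617708, at 26.3 (11.1 to 82.2), and from 106617963 to 106621200, at 118. The upper part takes in the island from 106654526 to 106657132, at 18.0 (5.92 to 89.6). The lower part is mostly the island from 106579560 to 106607167, with 20299 and 2296 reads and a ratio of 6.93 (6.64 to 7.24), or 10.4 (9.25 to 11.8) without the block. Among the other islands the ratio was lowest from 106662892 to 106666690, at 4.35 (3.096 to 6.26). It was largest from 106617963 to 106621200, where 151 pEGC reads faced 1 pFF read, a ratio of 118 (20.9 to 4706).

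At the lower edge of that block, the 50 bases from 106603445 to 106603494 held 533 pEGC reads and 318 pFF reads, a ratio of 1.31 (1.14 to 1.51). Of these, 498 pEGC reads and 317 pFF reads lay on strand R. The edge took 2.39% of the locus reads in pEGC and 13.4% in pFF, so a single narrow place weighed more on the pFF level. What made reads gather there was not tested.

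The chromosome 12 locus was 1 part with the smallest ratio of the 7. Its wide block, 4088 bases from 44465264 to 44469351 at the upper limit, had 241 RPM per kb in pEGC and 51.2 in pFF, a ratio of 4.72 (4.50 to 4.94). The island around it, from 44464492 to 44469654, had 12594 and 2086 reads and a ratio of 4.73 (4.52 to 4.96). The locus also had 20 exon-like peaks, of which 0 lacked pFF reads. Of 15 islands of sufficient depth, 13 met the 4-fold rule. The other 2, from 44405360 to 44406224 and from 44462199 to 44464303, had ratios of 2.57 (2.22 to 2.99) and 3.35 (2.75 to 4.11). The largest ratio, 41.5 (7.14 to 1672), rested on 53 pEGC reads and 1 pFF read from 44453657 to 44455586.

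The chromosome 7 locus had another form. It was 1 part of 56 islands with 35 exon-like peaks and no wide block, and its densest 5 kb held 10.7% of its pEGC reads, beside 30.6% to 75.7% in the other loci. In 23 of the islands pFF had 0 reads, and all 35 islands of sufficient depth met the 4-fold rule. The island with most pEGC reads, from 53034938 to 53047421, had 1018 and 13 reads and a ratio of 61.4 (35.7 to 116). The largest ratio with pFF reads present, from 53050255 to 53054228, came from 317 pEGC reads and 1 pFF read and was 249 (44.3 to 9846). From 53016411 to 53019136, 305 pEGC reads faced 0 pFF reads, so that island cannot be ranked against it. The smallest ratio with pFF reads present was 15.3 (5.74 to 57.5), from 52997264 to 52997761, with 78 and 4 reads. In the island from 52949105 to 52950890, 56 pEGC reads faced 0 pFF reads, a ratio of 14.6 at the floor of 3. Its exact interval starts at 11.5, and it cannot be ranked. In windows of 10 kb the ratio ran from 24.8 to 274. All windows had at most 13 pFF reads, so their intervals are wide.

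**Figure D2:**
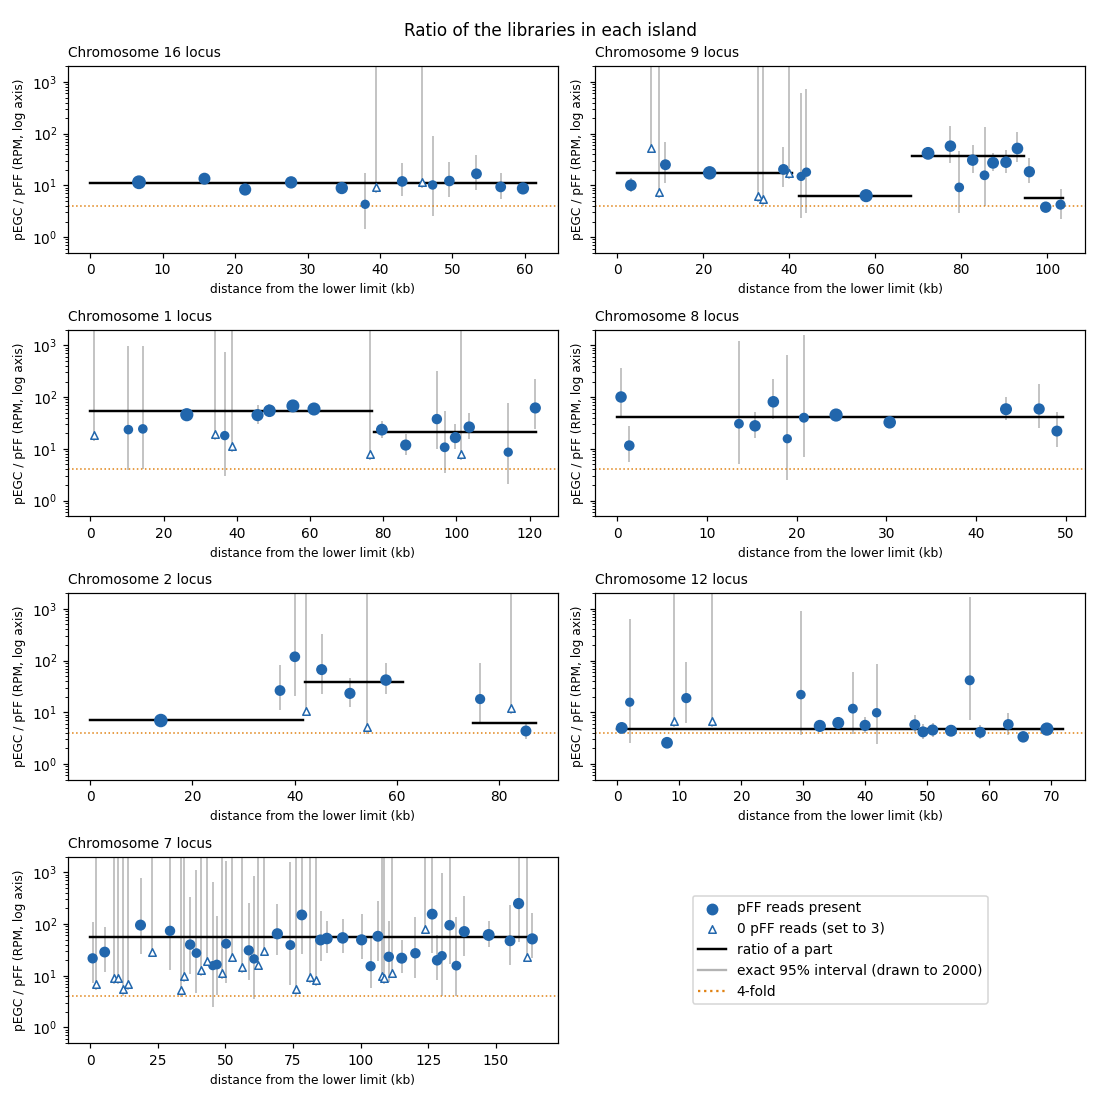
Ratio of pEGC to pFF (log axis) in each island of the 7 loci against the distance of the island from the lower limit in kb, with exact 95% intervals, the ratios of the parts as black lines and islands with 0 pFF reads drawn as open triangles at a floor of 3 reads. Most points of the chromosome 16 and chromosome 12 loci lie close to 1 line, while the chromosome 9 and chromosome 2 loci step between parts.

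The narrow peaks were examined next, as the features most like exons. Clear peaks, a class defined after the data were seen, are exon-like peaks with a higher level in pEGC and at least 10 times the mean coverage of their flanks. The flanks are those bases within 200 bases on either side that lie outside covered runs. Neighbouring runs are left out of the flanks, so a clear peak can stand close to another peak or block. Of the 319 peaks 123 were clear. Their median width was 120 bases, with quartiles of 86.5 and 187 bases and a range of 50 to 497 bases. Of these, 108 had pFF reads. The chromosome 1 locus had 36 clear peaks, chromosome 9 had 28, chromosome 7 had 19, chromosome 12 had 18, chromosome 16 had 11, chromosome 8 had 9 and chromosome 2 had 2. Thus 18 of 20 exon-like peaks counted as clear on chromosome 12, but 2 of 29 on chromosome 2.

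Within a locus, the clear peaks with at least 50 pEGC reads had these ratios. On chromosome 12 they ran from 2.49 (2.15 to 2.90), in the peak of 245 bases from 44405367 to 44405611 with 750 pEGC and 236 pFF reads, to 7.26 (5.41 to 9.92), in the peak from 44429490 to 44429683 with 463 and 50 reads. The median was 4.75, equal to the ratio of the whole locus. On chromosome 16 the range was 6.62 to 31.0 with a median of 10.4. Among the loci with more than 2 clear peaks, these had the narrowest ranges. On chromosome 1 the ratios ran from 8.26 to 328 with a median of 49.7. The highest of these came from the peak from 132422461 to 132422585, with 418 pEGC reads and 1 pFF read, and the densest peak, from 132415774 to 132415885, had 520 RPM per kb in pEGC and a ratio of 82.7 (39.9 to 206). On chromosome 9 the range was 5.85 to 116 with a median of 32.1. That median is above the ratio of the whole locus, 12.9 with the pile-up and 22.3 without it. On chromosome 8 the range was 11.0 to 120 with a median of 22.0, and on chromosome 7 it was 12.7 to 112 with a median of 35.0. The highest ratio of a clear peak rested on at most 3 pFF reads in each of the chromosome 16, 9, 1, 8, 2 and 7 loci.

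How the levels of peaks in the libraries went together differed between loci. Spearman's rho between the levels per kb of the clear peaks was 0.955 over 11 peaks on chromosome 16 and 0.773 over 18 on chromosome 12. It was 0.444 over 34 peaks on chromosome 1, 0.5 over 9 on chromosome 8 and 0.207 over 14 on chromosome 7. The lowest value was 0.125 over 26 peaks on chromosome 9, where all 28 clear peaks together held 168 pFF reads. The 2 clear peaks on chromosome 2 give none. Peaks of a locus share the same libraries and neighbours and are not independent, so these values are descriptions. On chromosomes 9, 1, 8 and 7 the pFF level of many peaks rests on a handful of reads.

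**Figure D3:**
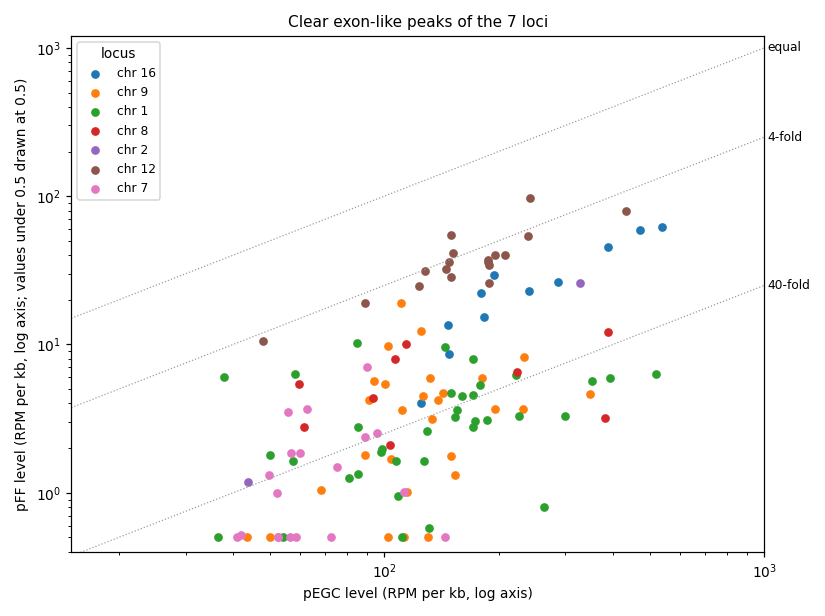
Level of each of the 123 clear exon-like peaks in pFF against pEGC, in RPM per kb on log axes, coloured by locus, with dotted lines where the libraries are equal or differ 4-fold or 40-fold and pFF levels under 0.5 drawn at 0.5. Peaks of the chromosome 12 locus lie around the 4-fold line, those of the chromosome 16 locus between the 4-fold and 40-fold lines, and those of the chromosome 1, 9, 8 and 7 loci on both sides of the 40-fold line.

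How far the libraries share their densest places was described in bins. The 10% of 100-base bins with most pEGC reads held 81.2% of pEGC reads and 81.7% of pFF reads on chromosome 16. The shares were 82.8% and 82.2% on chromosome 8, and 50.02% and 51.8% on chromosome 7. On chromosome 1 they were 84.7% and 75.6% (exact 95% interval of the pFF share 71.8% to 79.1%). On chromosomes 2 and 12 the pFF share was the larger, 90.8% beside 83.8% and 95.6% beside 91.0%. On chromosome 9 the shares were 60.7% and 34.2%, or 59.2% in pFF without the pile-up. These bins were chosen on the pEGC reads, which favours the pEGC share. The interval of the pFF share held the pEGC share on chromosomes 16, 8 and 7 and, without the pile-up, on chromosome 9. The pFF share lay above the pEGC share on chromosomes 2 and 12 and below it on chromosome 1, with intervals that did not overlap.

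Reads between the covered runs were compared with the reads in them. Over all reads outside the chromosome 6 block, pEGC had 369 reads outside runs per 1000 reads in runs and pFF 189.7. In sum over the genome, pEGC thus had 1.95 times as many. In 6 of the 7 loci the pEGC value was below that: 43.0 per 1000 on chromosome 16, 54.6 on chromosome 1, 59.7 on chromosome 8, 63.0 on chromosome 12, 84.3 on chromosome 9 and 139.8 on chromosome 2. On chromosome 7 it was 1349. The pFF values were 17.6 on chromosome 12, 27.6 on chromosome 16, 45.5 on chromosome 9 (81.3 without the pile-up), 71.0 on chromosome 1, 71.8 on chromosome 2, 90.3 on chromosome 8 and 1327 on chromosome 7. A value per 1000 reads in runs falls as a locus is read more deeply, because deeper loci turn more bases into runs, so loci of unlike depth are not on 1 scale.

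The ratio of the reads between covered runs was larger than that in runs, with intervals that did not overlap, in 4 loci, or in 3 without the pile-up on chromosome 9. On chromosome 12, 1224 pEGC reads and 59 pFF reads lay outside runs, a ratio of 16.3 (12.5 to 21.5) beside 4.54 (4.38 to 4.71) in runs, a factor of 3.58. On chromosome 2 the ratios were 13.5 (11.5 to 15.9) and 6.93 (6.63 to 7.25), a factor of 1.95. On chromosome 16 they were 17.1 (13.8 to 21.3) and 10.9 (10.6 to 11.3), a factor of 1.56. The factors on chromosomes 2 and 16 are thus at or below the 1.95 of the libraries as a whole, and that on chromosome 12 is above it. The 1.95 sums over places of all depths and of either direction, so it does not tell what a single locus would show. On chromosome 9 the ratios were 23.1 (18.9 to 28.5) and 12.5 (11.9 to 13.03), a factor of 1.85, but 1.04 without the pile-up. On chromosomes 1, 8 and 7 the intervals overlapped, with factors of 0.768, 0.661 and 1.02. The ratio outside runs was 38.0 (27.5 to 54.2) on chromosome 1 and 28.1 (19.3 to 42.6) on chromosome 8, so a difference from the runs can be neither shown nor set aside at this depth.

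**Figure D4:**
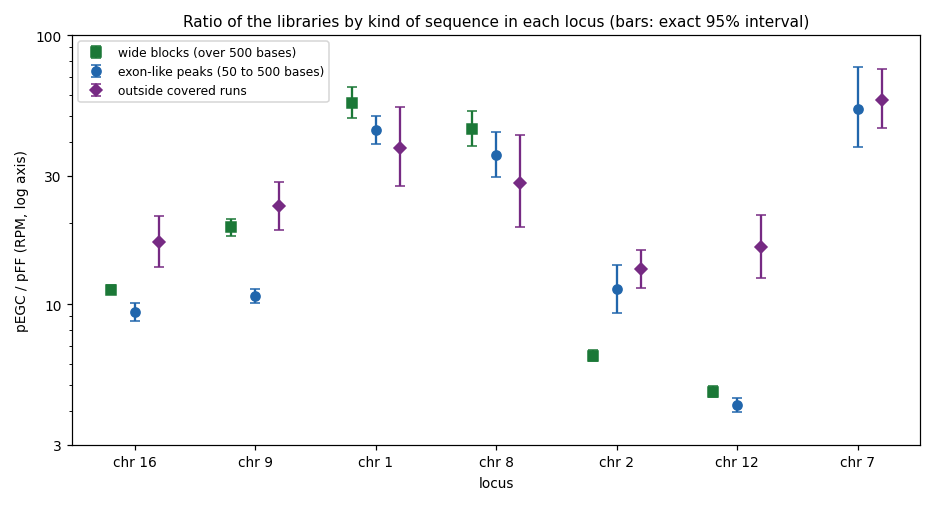
Ratio of pEGC to pFF (log axis) in the wide blocks, the exon-like peaks and the reads outside covered runs of each of the 7 loci, with exact 95% intervals. Outside runs the ratio is 16.3 on chromosome 12, where blocks and peaks stand at 4.72 and 4.21, and the kinds lie closer together on chromosomes 1 and 8, and on chromosome 7, which has no wide block.

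The chromosome 7 locus was also unlike the other loci described here in where its reads lay. Most reads lay outside runs in both libraries, 57.4% in pEGC and 57.0% in pFF, while runs made up 2.99% of its bases. The ratio was 57.5 (45.02 to 74.6) outside runs and 53.2 (38.3 to 76.1) in exon-like peaks. In the other loci, runs made up 7.74% to 26.4% of the bases. Among the 91 stretches higher in pEGC this form is not particular to the chromosome 7 locus. Their pEGC reads outside runs ran from 32.1 to 3443 per 1000 in runs, with a median of 392. The less abundant stretch from 52721386 to 52812199 on chromosome 7 had 1373.

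**Figure D5:**
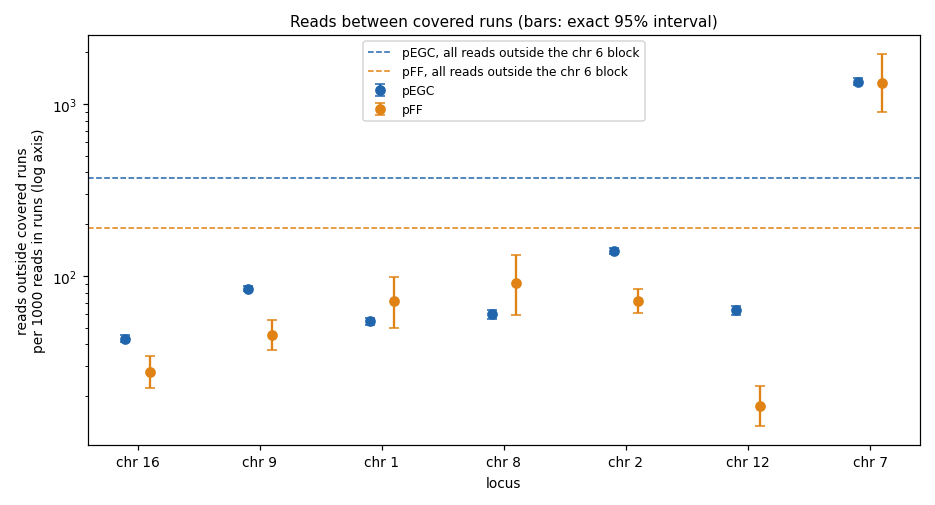
Reads outside covered runs per 1000 reads in runs (log axis) in each of the 7 loci, for pEGC and pFF, with exact 95% intervals and, as dashed lines, the values over all reads outside the chromosome 6 block. The chromosome 7 locus lies above both lines at 1349 and 1327, and the other 6 lie below the line of their own library.

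A stricter definition of reads between features takes those outside the islands. The 7 loci had 1335 such pEGC reads, or 7.14 per 1000 island reads, and 34 such pFF reads, or 2.75 per 1000. Their summed ratio was 30.8 (21.9 to 44.6), but the loci contribute to it in other proportions than to the whole, so it is not set against the ratio of 11.9. By locus, the ratio between islands was 11.8 (5.78 to 27.9) on chromosome 8, below the 41.4 of the locus. It was 34.8 (17.5 to 81.2) on chromosome 1 and 54.7 (21.1 to 202) on chromosome 7, with intervals that held the ratio of the locus. On chromosome 2 it was 30.6 (12.9 to 95.2) and on chromosome 12 it was 27.6 (13.8 to 64.6), above the 7.37 and 4.75 of these loci. On chromosome 9 it rested on 1 pFF read, at 51.7 (8.97 to 2074). On chromosome 16, 38 pEGC reads faced 0 pFF reads, a ratio of 9.93 at the floor of 3 reads with an exact interval from 7.69 upward. The limits of islands depend on both libraries and, in these loci, mostly on the pEGC reads. With at most 8 pFF reads in a locus, these ratios have wide intervals.

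Other long stretches give a measure of how these loci compare. By level, 16 of the 91 stretches higher in pEGC and 15 of the 36 higher in pFF were at least as abundant in their own library as the least abundant of the 7. Outside runs, the 9 of the 16 that are not among the 7 had 94.4 to 265 reads per 1000 in runs in pEGC, with a median of 177. The 15 higher in pFF had 8.11 to 166 in pFF, with a median of 48.4. The values of the 7 in pEGC lay below that range on chromosomes 16, 1, 8, 12 and 9, within it on chromosome 2 and above it on chromosome 7. The 5 below the range had 1407 to 3700 RPM in pEGC, the chromosome 2 locus 1760.5 RPM and the chromosome 7 locus 655 RPM. The 9 stretches had 659 to 1416 RPM. Since the measure falls with depth, no difference between the 7 and the 9 is read from these positions. No replicate exists for any of them, and abundance differs within and between the sets.

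The reads of the loci came from both strands in near equal numbers, and the labels describe no stranded protocol. In pEGC the share on strand F ran from 48.1% to 51.8%. In pFF it ran from 47.9% to 51.1% in 5 loci. The others were chromosome 9 at 59.5% (57.4% to 61.5%), or 52.9% (50.1% to 55.6%) without the pile-up, and chromosome 2 at 39.7% (37.7% to 41.7%), or 45.8% (43.6% to 48.0%) without the edge of its wide block. The loci can therefore not be given a direction of transcription.

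Repeated positions bear on all the ratios. On chromosome 16, 20.5% of reads in pEGC and 50.6% in pFF remain if each combination of position and strand is counted once, and on chromosome 7 the shares are 68.4% and 80.7%. In each of the 7 loci the share was lower in pEGC, the library with more reads there. Ratios were also taken with each combination counted once, both in the loci and in the library totals. The ratio was then 3.49 (3.31 to 3.68) on chromosome 16, 3.60 (3.36 to 3.86) on chromosome 2 and 2.13 (2.01 to 2.25) on chromosome 12. It was 9.16 on chromosome 9, 12.5 on chromosome 8, 14.5 on chromosome 1 and 37.5 on chromosome 7. All 7 remained above 1, which their choice on this contrast favours, but the first 3 were then below 4. Because the library totals changed too, these ratios are not on the RPM base used above. The shift due to repeats within the loci alone is not given. Counting each position once limits dense blocks, where most positions are already taken, and how much of the repetition was copying of fragments was not tested.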

How the data were processed

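Per the labels' protocols, RNA went through 2 rounds of poly(A) selection, DNase, hydrolysis and random-hexamer cDNA synthesis. The authors deposited read positions, 1 aligned read of 34 bases per line, for 1 pEGC and 1 pFF library. For the aligner, genome build and filters, nothing is given in the sources used here. Positions are printed counting from 1, as for BED files, and may be off by 1 base. Islands, covered runs, parts and ratios were computed with Python 3.11.15, numpy 2.4.6, pandas 2.3.3 and scipy 1.17.1, tested on simulated reads. With 1 library per group no test was made. The loci, rules and lists were chosen with earlier results of these data known. Clear peaks, the concentration in bins, the pile-up and the block edge were defined after seeing these data. Named are all loci, all parts, in each locus the islands with most pEGC reads and with the largest and smallest ratio among those with at least 50 pEGC reads, and the nearest island with at least 50 pooled reads on each side. Other blocks, peaks and islands named were chosen after their values were seen. Alternatives were 3 other scalings, repeated positions counted once, other limits of islands, parts and runs, 1 strand, and omission of the deepest islands or the pile-up.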

Additional observations from a re-analysis of the deposited data

How the results depend on the processing

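The summed ratio of 11.9 was 15.2 over all reads, 9.42 with a trimmed mean of M-values, 9.27 with a median of ratios, 5.72 with each position counted once, 14.3 without the deepest island of each locus and 12.9 without the chromosome 9 pile-up, an omission chosen after seeing the data. The trimmed mean of M-values and the median of ratios lower all log2 ratios by 0.34 and 0.36. With each position counted once, the library totals were recounted in that way too. Islands past the 4-fold rule numbered 104, and 50 when joined over 400 bases. Parts numbered 13, and 7 when they had to differ 3-fold. Exon-like peaks numbered 319, with 531 at a coverage of 5 and 195 at 20. Reads between islands in pEGC, 7.14 per 1000, were 23.7 with each position counted once, 24.0 with islands joined over 100 bases, 1.73 over 400 bases, 3.53 with islands of at least 10 reads, 15.8 with at least 50, 5.19 at 500 bases or more from any island, and 95.3 outside covered runs, a definition chosen after seeing the data. Their ratio of 30.8 was 21.7 with each position counted once and 15.9 with islands joined over 400 bases. Of 57 alternative values for single loci, 20 stayed within the interval of the value reported and 37 left it. The lowest was 2.13 on chromosome 12. That 0 fell below 1 supports nothing, because the loci were chosen as higher in pEGC in these same reads. The cause of these shifts was not tested. No library could be left out and no paired analysis was possible because each group has 1 library. Depth limits pFF most: the chromosome 7 locus rests on 114 pFF reads.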

Other observations

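The limits of the 7 loci were set by joining islands within 20 kb that met the 4-fold rule, so what lies closer than that was fixed by the choice. Below each locus, the nearest island with at least 50 pooled reads met the rule for pEGC in 7 of 7 cases. Over all 32206 islands of the genome with at least 50 reads in 1 library, 15.5% met it. Above each locus, the nearest such island met the rule on chromosome 1. Those on chromosomes 16, 8, 2 and 12 had under 50 reads in each library and could not, so the sides are not compared. The lower neighbours lay 26.3 to 73.7 kb away, beyond the 20 kb over which islands were joined. Among the deepest was that on chromosome 8 from 99364116 to 99367701, with 894 pEGC and 9 pFF reads and a ratio of 77.9 (40.8 to 171). The deepest was on chromosome 9 from 65794295 to 65796470, with 962 and 68 reads and a ratio of 11.1 (8.67 to 14.4). On chromosome 12 the island from 44363217 to 44363483 had 166 pEGC reads and 0 pFF reads. At the floor of 3 reads its ratio was 43.4, and the exact interval starts at 34.9. On the upper side, the neighbours that did not meet the rule had ratios from 0.871 to 1.94 and lay 3.23 to 161 kb away. Positions count from the start of a chromosome, so lower and upper say nothing of the direction of transcription, and no pattern is read from these 7 places.

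Just outside the limits, the adjoining 20 kb held few reads. On the lower side of the chromosome 7 locus, 224 pEGC reads faced 2 pFF reads, a ratio of 87.8 (24.0 to 729), and below the chromosome 2 locus 151 faced 2. Above the chromosome 2 locus, 304 faced 30, a ratio of 7.94 (5.45 to 11.98), and above the chromosome 12 locus 121 faced 44, a ratio of 2.16 (1.52 to 3.12). Above the chromosome 16 locus 125 faced 3, a ratio of 32.7 (10.9 to 161). Above the chromosome 9 locus 80 faced 18, and below the chromosome 8 locus 76 faced 3. The flanks with fewest pEGC reads lay next to the chromosome 7 and chromosome 1 loci. They held 4 pEGC reads and 0 pFF reads above the chromosome 7 locus, 2 and 0 below the chromosome 1 locus, and 12 and 7 above the latter.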
